A study of Mus musculus with 20 samples.

Results

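The receptors described here steer white blood cells through the circulation. They are 10 genes, Cxcr2, Cxcr4, Cxcr3, Ccr1, Ccr2, Cx3cr1, Fpr1, Fpr2, C5ar1 and Csf3r, taken by name from the array's design, with the older names Il8rb for Cxcr2 and Fpr-rs2 for Fpr2. The array holds 15 probes for them, of 41174 probes in all, and each probe is described. Of the 15 probes, 12 probes of 8 genes were bright enough to be tested, among 20955 probes tested. Ccr1, C5ar1 and the dimmer probe of Cx3cr1 were not. Where a gene has 2 probes, probe 1 is the brighter.

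Blood was taken from 4 female C57Bl/6 mice, numbered 305, 310, 315 and 320, before (day 0) and at days 10, 15, 20 and 25 after Hepa1-6 cells, a mouse hepatoma line, were placed under the skin. Each of the 20 samples of whole blood RNA was labelled with Cy5 and hybridised to an Agilent whole-genome array beside a common reference of blood RNA from untreated C57Bl/6 mice labelled with Cy3. Values are log2(Cy5/Cy3), normalised within each array. A value of 0 thus means the level of that reference relative to probes of similar brightness on the array. Above or below the reference is meant in that sense. Mice without tumour cells bled at the later days were not analysed here, and each day had a slide of its own, so time after inoculation, age, repeated bleeding and slide cannot be told apart.

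Chemotaxis receptors are mostly receptors with a membrane-spanning bundle that couple to inhibitory G proteins. Cxcr2 binds neutrophil-attracting CXC chemokines and draws neutrophils out of the marrow, whereas Cxcr4, the receptor of Cxcl12, holds them back in it. Fpr1 and Fpr2 sense formylated peptides of bacteria and mitochondria, C5ar1 senses the complement fragment C5a, and Csf3r is the receptor of granulocyte colony-stimulating factor. Ccr2 brings classical monocytes out of the marrow, Cx3cr1 marks patrolling monocytes, Ccr1 binds inflammatory CC chemokines, and Cxcr3 directs activated T cells and NK cells.

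The stretches of 250 bases before the annotated starts of Cxcr2, Fpr1 and Fpr2 are shown because these genes were among the receptors lower after inoculation. Csf3r and Cxcr4 were lower too, but their windows are not printed. The printed stretches come from RefSeq on GRCm38.p6, at chr1:74153744-74153993 (plus strand), chr17:17883940-17884189 (minus strand) and chr17:17887574-17887823 (plus strand). Capitals mark matches to GAGGAA or its other strand TTCCTC, the core bound by the myeloid factor PU.1.
Cxcr2: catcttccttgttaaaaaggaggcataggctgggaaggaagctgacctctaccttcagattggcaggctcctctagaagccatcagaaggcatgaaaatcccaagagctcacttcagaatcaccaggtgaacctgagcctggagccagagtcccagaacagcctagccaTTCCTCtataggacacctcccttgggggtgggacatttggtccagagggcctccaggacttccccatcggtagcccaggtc
Fpr1: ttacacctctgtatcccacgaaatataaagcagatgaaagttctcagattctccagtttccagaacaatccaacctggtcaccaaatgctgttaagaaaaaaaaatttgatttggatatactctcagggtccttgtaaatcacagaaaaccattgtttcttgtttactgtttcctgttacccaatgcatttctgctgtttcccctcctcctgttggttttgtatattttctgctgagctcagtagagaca
Fpr2: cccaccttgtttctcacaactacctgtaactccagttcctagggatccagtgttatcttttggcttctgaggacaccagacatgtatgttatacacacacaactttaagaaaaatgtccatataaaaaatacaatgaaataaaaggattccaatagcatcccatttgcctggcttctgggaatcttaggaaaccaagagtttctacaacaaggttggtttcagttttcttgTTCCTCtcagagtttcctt
Cxcr2 and Fpr2 held 1 match each and Fpr1 held 0. The windows of Cxcr3, Ccr1 and Csf3r held it too, and 23.1% of all 27018 windows of this length did. The letters TTNNGCAA (other strand TTGCNNAA), of the C/EBP family, were in 0 of the 10 windows and in 9.56% of all. TGTGGT (other strand ACCACA), of the RUNX family, was in the windows of Cxcr3, Ccr1, Cx3cr1 and C5ar1 and in 14.2% of all.

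The receptors typical of neutrophils were lower in blood after inoculation. Cxcr2, Fpr1, the brighter probe of Fpr2 and Csf3r were below day 0 on each later day. Of the 12 probes tested, 6 were lower and 1 higher at day 10, and 7 were lower at each of days 15, 20 and 25 (limma, Benjamini-Hochberg adjusted p under 0.05 over all probes tested). The lower probes belonged to 5 of the 8 tested genes on each day, as Cxcr2 and, from day 15, Cxcr4 counted by both probes. The same threshold called 22% of all probes lower and 14.8% higher at day 10, 22.1% lower at day 15, 13.2% at day 20 and 10.5% at day 25. The 4 comparisons share the day 0 arrays. No overlap with day 0, on the lower side, was seen for 7, 7, 6 and 6 of the 12 probes at days 10, 15, 20 and 25, when 16%, 16.5%, 12.2% and 10.4% of all probes had none. With the background model fitted on all spots of an array, in place of leaving out spots far below background, 3, 3, 5 and 0 of the receptor probes passed (limma, the 0 being 7 at an unadjusted p under 0.05). That setting called 2328, 1168, 658 and 38 of all 20955 probes in either direction, against 7712, 8172, 4187 and 3295 in the main fit. Without mouse 320 the counts were 4 at day 20 and 2 at day 25, without mouse 310 or 315 they were 3 and 4 at day 25, and without the array of mouse 320 on day 0 or mouse 315 on day 25 the day 25 count was 4. Over all probes the calls were then 2951 at day 20 and 822 at day 25 without mouse 320. At day 25 they were 2179 and 1301 without mouse 310 or 315, and 1738 and 2254 without those single arrays. Lower calls were 4602 of 7712 over all probes at day 10, but 1634 of 5158 with the scanner software's own log ratio. At day 20 they were 2769 of 4187 against 983 of 2443, and at day 25 2193 of 3295 against 708 of 810. The median shift of the scanner software's ratio was taken off at days 10 and 20 (-0.18 and -0.12) but not at day 25 (-0.054). The main fit, with medians of -0.071, -0.064 and -0.045, was not re-centred. The part of this in these counts was not tested.

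**Figure D1:**
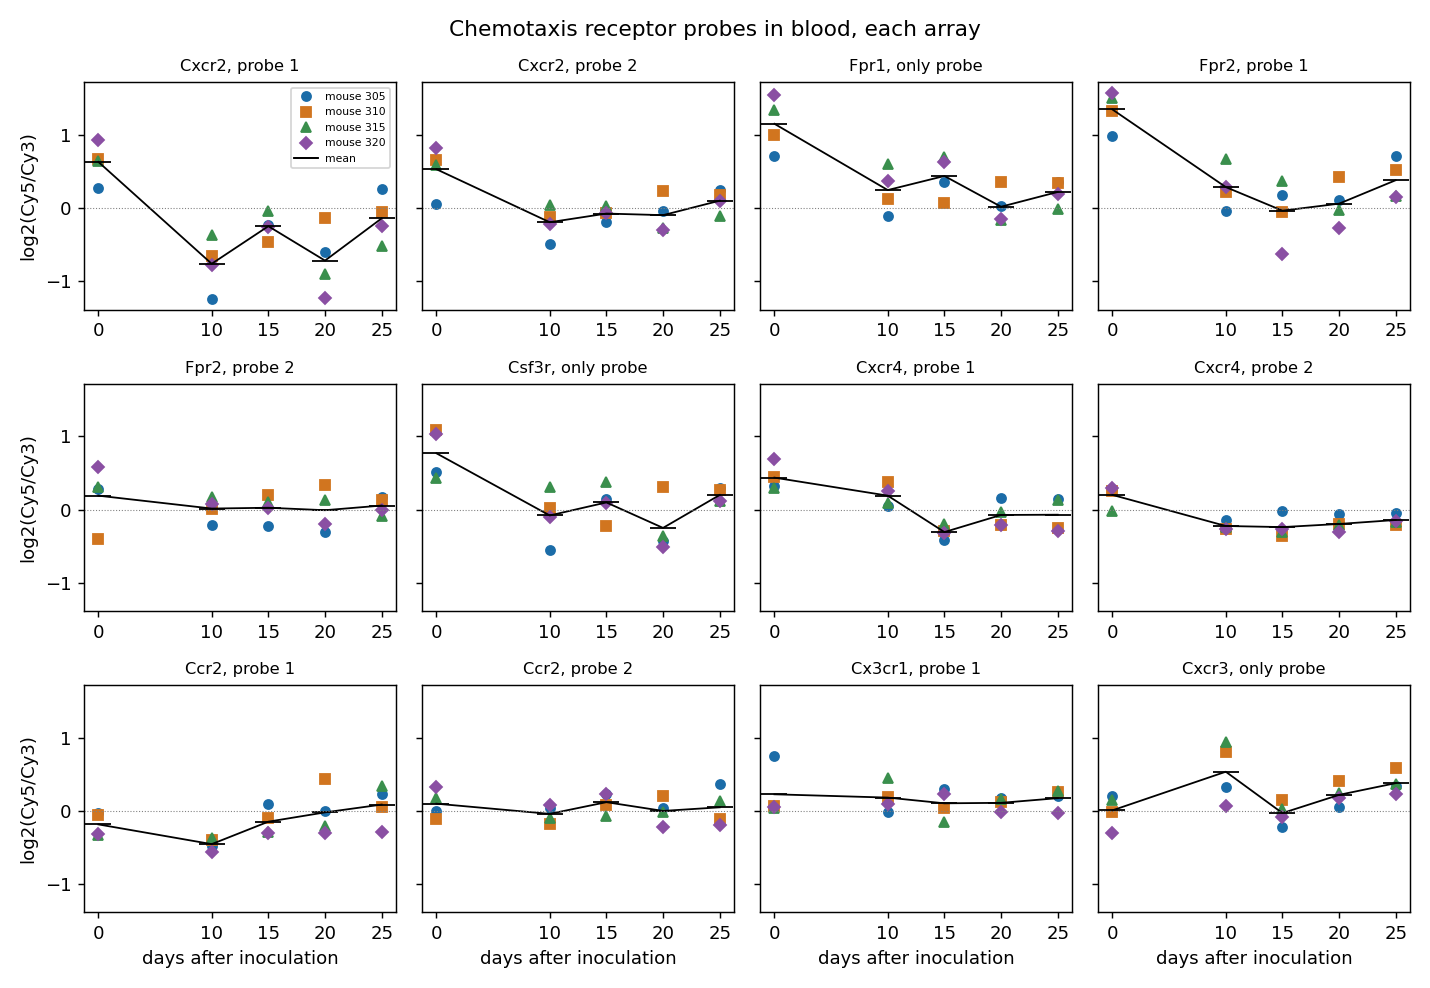
Each panel plots log2(Cy5/Cy3) of 1 receptor probe (vertical axis) against days after inoculation (horizontal axis); points are mice and the line joins the day means. The 4 day 0 points of Fpr1, Fpr2 probe 1 and Csf3r lie above all points of the later days, and for Cxcr2 probe 1 mouse 305 at day 25 (0.267) is just under its own day 0 value (0.270).

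The brighter probe of Cxcr2 read 0.27, 0.68, 0.65 and 0.94 in mice 305, 310, 315 and 320 on day 0. It read -1.24, -0.65, -0.37 and -0.78 on day 10 and -0.23, -0.46, -0.036 and -0.26 on day 15. All 4 mice were thus above the reference on day 0 and below it on both later days. On day 20 the values were -0.60, -0.13, -0.89 and -1.23, and on day 25 0.27, -0.054, -0.52 and -0.25. On none of these days did the values overlap with day 0, though the gap at day 25 was small (0.270 on day 0 and 0.267 on day 25 in mouse 305). The changes from day 0 were -1.39, -0.88, -1.35 and -0.77 at days 10, 15, 20 and 25 (SE 0.21, limma adjusted p = 0.000106, 0.00269, 0.000359 and 0.0179). That is 2.62-fold lower at day 10 and 1.71-fold lower at day 25. Cxcr2 probe 1 was 0.62 higher on day 25 than on day 10 (SE 0.21, limma adjusted p = 0.0248), in 3 of 4 mice, when 18.2% of all probes were higher. That call ended without mouse 305 on day 10 or without mouse 305 or 310 on day 25 (adjusted p up to 0.103). It also ended without all arrays of mouse 305 or 310 (change down to 0.32, adjusted p up to 0.273), with the scanner software's ratio or with the background model fitted on all spots (adjusted p = 0.105 and 0.233). The day 15 and day 25 calls against day 0 ended with the Cy5 channel alone or with the background model fitted on all spots, and the day 25 call also under scaling between arrays or with the scanner software's ratio. The dimmer probe of Cxcr2 gave -0.72, -0.61, -0.63 and -0.43 (SE 0.15, limma adjusted p = 0.000979, 0.00285, 0.00600 and 0.0485), and overlapped with day 0 on days 20 and 25. The background model fitted on all spots ended all 4 of these calls (-0.084 at day 25), the scanner software's ratio also that of day 15, and only the arrays of the days compared that of day 20. The day 25 call held under 3 of 10 settings. Both probes followed each other over the 20 arrays (r = 0.93).

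Fpr1, the high-affinity formyl peptide receptor, read 0.72, 1.0, 1.34 and 1.55 on day 0 in the same order of mice. It read -0.11, 0.12, 0.60 and 0.38 on day 10 and 0.36, 0.072, 0.70 and 0.63 on day 15. Every mouse stood above the reference on day 0, and the later values lay below all of these. On day 20 it read 0.031, 0.37, -0.16 and -0.15 and on day 25 0.36, 0.34, -0.010 and 0.20. The changes were -0.90, -0.71, -1.13 and -0.93 (SE 0.18, limma adjusted p = 0.000879, 0.00386, 0.000404 and 0.00294), with day 20 2.19-fold lower. Each held with any 1 array or any 1 mouse left out. The day 15 call ended under scaling between arrays or with the scanner software's ratio, and the day 25 call with the background model fitted on all spots.

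Fpr2, the related receptor of formyl peptides and serum amyloid A, read 0.98, 1.32, 1.51 and 1.58 on day 0 at probe 1. The values were -0.032, 0.22, 0.68 and 0.29 on day 10 and 0.18, -0.058, 0.37 and -0.62 on day 15. No later value reached the lowest of day 0. They were 0.12, 0.42, -0.027 and -0.27 on day 20 and 0.71, 0.52, 0.16 and 0.15 on day 25. The changes of -1.06, -1.38, -1.29 and -0.97 (SE 0.20, limma adjusted p = 0.000572, 3.62e-05, 0.000337 and 0.00431) put day 15 lowest, 2.61-fold below day 0, and each held with any 1 array or mouse left out. With the scanner software's ratio only the day 15 call held, and the background model fitted on all spots ended those of days 10 and 25. Scaling between arrays also ended the day 25 call. The dimmer probe of Fpr2 was not past the threshold in any comparison, at -0.18, -0.17, -0.20 and -0.13 (SE 0.16). Its design entry names Fpr3 as well as Fpr2, so its signal cannot be assigned to 1 gene. On days 15 and 20 none of its arrays was well above background, so its changes at those days rest on dim spots.

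Csf3r, which carries the granulocyte growth signal, read 0.52, 1.09, 0.43 and 1.04 on day 0. It read -0.55, 0.025, 0.31 and -0.10 on day 10 and 0.14, -0.22, 0.38 and 0.093 on day 15. The day 0 values lay above both days in all mice. It read -0.43, 0.31, -0.37 and -0.51 on day 20 and 0.30, 0.26, 0.12 and 0.12 on day 25. The changes were -0.85, -0.67, -1.02 and -0.57 (SE 0.19, limma adjusted p = 0.00213, 0.00851, 0.00143 and 0.0455). The day 25 call was close to the threshold and ended with any of 11 of the 20 arrays left out (mice 310 and 320 of days 0 and 10, 305 and 320 of day 15, 315 of day 20 and all 4 of day 25), at adjusted p up to 0.141. The day 25 call of Cxcr2 probe 2 ended with any of 15 arrays left out, holding without mouse 305 of day 0, mice 305 and 315 of day 10 or mice 310 and 320 of day 20, and that of Cxcr2 probe 1 without mouse 320 on day 0 or mouse 315 on day 25. Leaving out all arrays of mouse 315 or 320 ended the day 25 calls of Csf3r and both Cxcr2 probes, as leaving out mouse 310 did for Csf3r and Cxcr2 probe 2. The day 25 call of Csf3r also ended under 6 other settings and the day 15 call under scaling between arrays or with the scanner software's ratio. Leaving out mouse 310 or 320 ended the day 15 call of Csf3r, and leaving out mouse 315 or 320 the day 20 call of Cxcr2 probe 2.

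C5ar1, the complement receptor of the same cells, was well above background in Cy5 on 1 of 20 arrays. It was not tested, and its day means of 0.067 ± 0.24 (SD, n = 4) on day 0 and 0.071 ± 0.087 on day 10 rest on a probe under the filter.

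Neutrophil markers moved with these receptors. The mean of 17 tested neutrophil genes (among them S100a8, S100a9, Mmp8 and Retnlg) lay at 0.59 to 0.95 over the 4 arrays of day 0. It lay at 0.0064 to 0.31 on day 10, -0.045 to 0.24 on day 15, -0.18 to 0.32 on day 20 and 0.23 to 0.35 on day 25. All 17 were well above background on at least 1 array, and 12, 13, 13 and 12 of them were lower and 1 higher (Ltf, lactoferrin, named after its values were seen) at days 10, 15, 20 and 25. Over all 15192 genes 21.2%, 22%, 12.9% and 9.75% were lower and 16.2%, 18.9%, 7.46% and 4.88% higher on these days. In whole blood, fewer cells of a type and less RNA per cell cannot be told apart, and the part of the marker genes in the receptor changes was not tested. Less that marker mean on the same array, Cxcr2 probe 1 stood at -0.14 ± 0.13, -0.92 ± 0.27, -0.37 ± 0.13, -0.74 ± 0.25 and -0.43 ± 0.29 (SD, n = 4) on days 0, 10, 15, 20 and 25, and Cxcr2 probe 2 at -0.24 ± 0.19, -0.35 ± 0.15, -0.20 ± 0.15, -0.12 ± 0.035 and -0.19 ± 0.13. Both Cxcr2 probes had day means below the marker mean on all 5 days, as did Csf3r. Fpr1 stood at 0.38 ± 0.23, 0.090 ± 0.17, 0.31 ± 0.18, -0.0039 ± 0.048 and -0.068 ± 0.15, and Fpr2 probe 1 at 0.57 ± 0.14, 0.13 ± 0.18, -0.16 ± 0.48, 0.038 ± 0.087 and 0.093 ± 0.23. Csf3r stood at -0.0071 ± 0.28, -0.24 ± 0.26, -0.029 ± 0.18, -0.27 ± 0.20 and -0.090 ± 0.050. These differences were not tested.

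**Figure D2:**
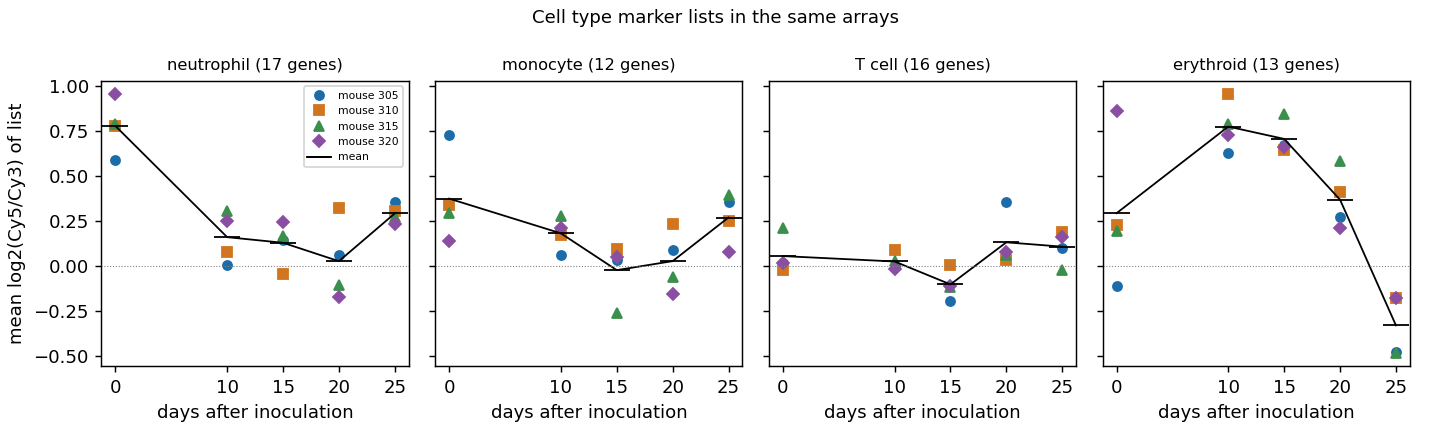
The mean log2(Cy5/Cy3) of 4 marker lists (vertical axis) is plotted against days after inoculation (horizontal axis) for each mouse, with lines joining day means. The neutrophil list lies at 0.59 to 0.95 on day 0 and at -0.18 to 0.32 on day 20, and the erythroid list at -0.49 to -0.18 on day 25.

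Cxcr4, which holds cells in the marrow, was lower from day 15 by both of its probes. Probe 1 read 0.32, 0.44, 0.30 and 0.69 on day 0 and 0.045, 0.37, 0.089 and 0.26 on day 10, and these overlapped. It read -0.41, -0.30, -0.20 and -0.32 on day 15, below the reference in every mouse. The values were 0.15, -0.21, -0.029 and -0.20 on day 20 and 0.14, -0.26, 0.13 and -0.30 on day 25. The changes were -0.25, -0.74, -0.51 and -0.51 (SE 0.12, limma adjusted p = 0.10, 7.90e-05, 0.00550 and 0.00764), so day 10 did not pass. Day 15 was also 0.50 below day 10 (limma adjusted p = 0.0233), when 0.577% of all probes were lower. No alternative or leave-out was run for that comparison. Probe 2 was lower on all 4 days, at -0.42, -0.44, -0.40 and -0.34 (SE 0.085, limma adjusted p = 0.000978, 0.000516, 0.00374 and 0.0116), and did not overlap with day 0 on any. On day 15 probe 2 was well above background in Cy5 on 1 of 4 arrays, so its change at that day rests mostly on dim spots. With the Cy5 channel alone its day 10 change was 0.00037 (adjusted p = 0.999). Without mouse 320 the day 20 calls of both probes ended, as did the day 25 calls without mouse 310 or 320. The background model fitted on all spots ended the calls of probe 1 against day 0 and those of probe 2 at days 10, 15 and 25. The scanner software's ratio, or only the arrays of the days compared, ended the day 25 calls of both, the former also the day 20 call of probe 1, and the Cy5 channel alone ended the day 20 and 25 calls of probe 2.

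**Figure D3:**
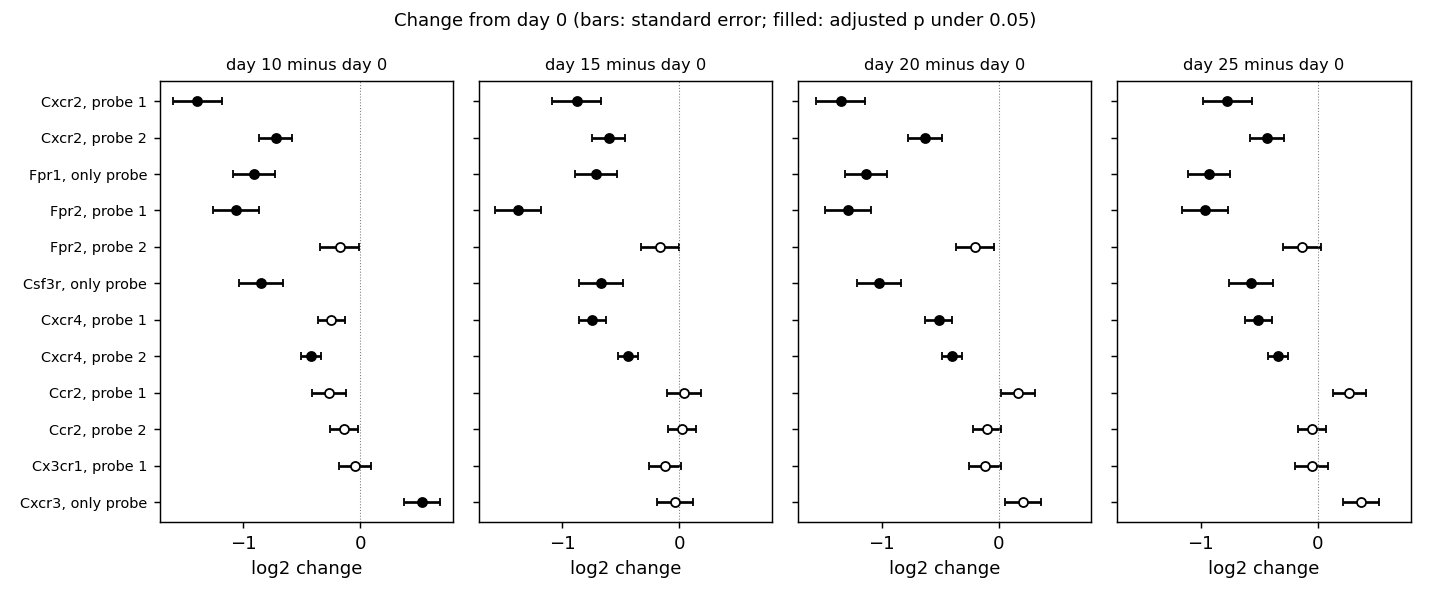
The change from day 0 in log2(Cy5/Cy3) (horizontal axis) is plotted for each tested receptor probe (rows) at the 4 later days (panels), with bars of 1 standard error and filled points for adjusted p under 0.05. Cxcr2, Fpr1, Fpr2 probe 1 and Csf3r lie to the left of 0 on all 4 days, Ccr2 and Cx3cr1 are open, and Cxcr3 is filled to the right of 0 at day 10.

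The monocyte receptors did not pass the threshold against day 0. Ccr2 probe 1 read -0.027, -0.061, -0.33 and -0.31 on day 0, -0.48, -0.39, -0.37 and -0.56 on day 10 and 0.24, 0.056, 0.34 and -0.28 on day 25. Its changes were -0.27, 0.037, 0.16 and 0.27 (SE 0.14, limma adjusted p = 0.146, 0.858, 0.436 and 0.201). Between days 10 and 25 it rose by 0.54 (SE 0.14, limma adjusted p = 0.00594), in 4 of 4 mice and without overlap. The scanner software's ratio put that rise at adjusted p = 0.0534. Probe 2, designed on a transcript with no RefSeq accession, was at -0.14, 0.020, -0.10 and -0.050 against day 0 (SE 0.12) and at 0.089 between days 10 and 25. With median centring in place of loess, probe 2 was higher than day 0 at days 10 (0.35) and 20 (0.41) and probe 1 lower at day 15 (-0.56), each past the threshold. The direction of Ccr2 therefore differs with the probe and the normalisation.

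Cx3cr1, the fractalkine receptor, ranged from 0.038 to 0.75 on day 0 and from -0.15 to 0.30 on day 15 at probe 1. Its changes were -0.045, -0.12, -0.12 and -0.053 (SE 0.14, limma adjusted p = 0.817, 0.501, 0.575 and 0.826), and the 5 days overlapped. Its other probe was well above background on 1 of 20 arrays. Ccr1 was well above background on 0 of 20 arrays in Cy5 and was not tested in the main fit. Its day means were -0.44 on day 0 and -0.10, -0.017, -0.14 and -0.086 at days 10, 15, 20 and 25. These means rest on a probe under the filter. The 12 tested monocyte genes (Csf1r and Lyz2 among them, without Ccr2 and Cx3cr1) averaged 0.13 to 0.73 on day 0 and -0.26 to 0.090 on day 15, with 4, 5, 4 and 1 lower and 1, 0, 0 and 0 higher at days 10, 15, 20 and 25, when 21.2%, 22%, 12.9% and 9.75% of all genes were lower and 16.2%, 18.9%, 7.46% and 4.88% higher.

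Cxcr3, the receptor of interferon-induced chemokines, was the only tested receptor with a higher call against day 0. It read 0.20, -0.012, 0.14 and -0.30 on day 0 and 0.33, 0.80, 0.94 and 0.073 on day 10. Mouse 320 was the lowest on both days, and the days overlapped. It read -0.21, 0.15, 0.025 and -0.082 on day 15 and 0.34, 0.59, 0.36 and 0.23 on day 25. The changes were 0.53, -0.037, 0.21 and 0.37 (SE 0.15, limma adjusted p = 0.0111, 0.865, 0.333 and 0.0967), with all 4 mice higher at day 10. The day 10 call ended without mouse 310 or 315 (adjusted p up to 0.0822), under median centring, on only the arrays of those days or with the background model fitted on all spots. The day 25 change of 0.37 passed with mouse as a fixed replicate block (limma adjusted p = 0.0371) but not as a random one (adjusted p = 0.0779). Day 15 was 0.56 below day 10 (limma adjusted p = 0.0480), with overlap between the days, when 0.577% of all probes were lower. Day 25 was 0.41 above day 15 (limma adjusted p = 0.0405), without overlap, when 17.6% of all probes were higher. Each was seen in 4 of 4 mice, and no alternative or leave-out was run for either comparison. Of 16 tested T cell genes 1 was higher and 2 lower at day 10, when 16.2% of all genes were higher and 21.2% lower, and the mean of 13 cytotoxic and NK cell genes lay at -0.80 to 0.58 on day 0 and -0.70 to 0.35 on day 10. The low end was mouse 320 on both days, and the other mice lay at 0.064 to 0.58 on day 0 and 0.16 to 0.35 on day 10.

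Across all 5 days, 9 of the 12 probes differed (limma F test, adjusted p under 0.05), when 55.4% of all probes did. In 9 of the 12 the highest mean was on day 0, though these were not the same 9 probes. The share of all probes with day 0 highest was not counted. Cx3cr1 probe 1 and Fpr2 probe 2 were among these 9 but did not differ among the days (limma F test, adjusted p = 0.896 and 0.784). For Cxcr2, Fpr1, Fpr2 probe 1, Csf3r and Cxcr4 probe 2 the step from day 0 to the next highest day passed the threshold, and no later neighbours in the order passed it. For Cxcr4 probe 1, Fpr2 probe 2, Cxcr3, Ccr2 and Cx3cr1 no neighbours in the order passed.

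**Figure D4:**
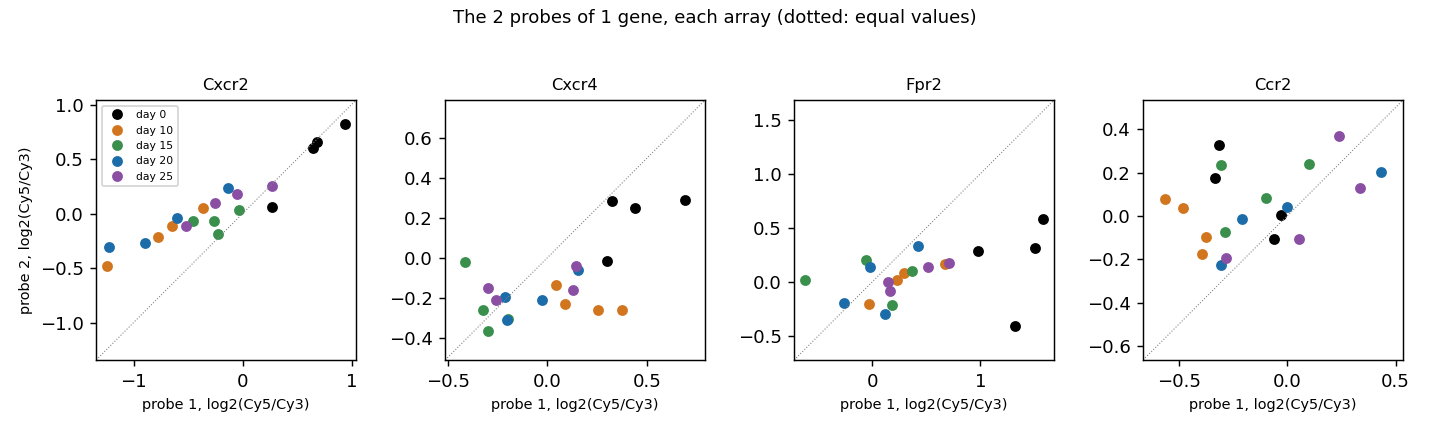
For 4 genes with 2 tested probes, log2(Cy5/Cy3) of probe 2 (vertical axis) is plotted against probe 1 (horizontal axis), with 1 point per array coloured by day and a dotted line at equal values. Points of Cxcr2 follow a line shallower than equality (r = 0.93), those of Cxcr4 (r = 0.64), Fpr2 (r = 0.42) and Ccr2 (r = 0.36) scatter more.

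The genes most like each receptor over the 20 arrays, which share slides and the reference, were found by Pearson's r of log2(Cy5/Cy3). For Cxcr2 they were Cebpd (r = 0.97), Hp (r = 0.97) and Slpi (r = 0.96). Fpr1 was nearest to Cstdc4 (r = 0.95), Clec4e (r = 0.95) and Mmp9 (r = 0.95), and Fpr2 to Wfdc21 (r = 0.94), Cstdc4 (r = 0.90) and Csf2rb (r = 0.90). For Csf3r they were Slc40a1 (r = 0.96), Mcemp1 (r = 0.93) and Cebpd (r = 0.92). Hp, Slpi and Mmp9 are also on the neutrophil list. Cxcr4 was nearest to Tsc22d3 (r = 0.93), Megf9 (r = 0.86) and Ddit4 (r = 0.84). Cxcr3 was nearest to Plekhm2 (r = 0.76), Coq7 (r = 0.74) and Esm1 (r = 0.73) and Ccr2 to C1galt1c1 (r = 0.87), Capza2 (r = 0.83) and Rpn1 (r = 0.82). Among the receptors, Csf3r and Cxcr2 had r = 0.92, and 0.82 after day means were taken off. Cxcr2 and Fpr1 had r = 0.89, and 0.82 after day means were taken off. Cxcr4 and Fpr2 had r = 0.71, and 0.19 after day means were taken off.

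Other receptors for chemoattractants included higher and lower calls. Of 36 listed genes 25 were tested, with 6, 8, 4 and 4 higher and 4, 3, 4 and 2 lower at days 10, 15, 20 and 25, when 16.2%, 18.9%, 7.46% and 4.88% of all genes were higher and 21.2%, 22%, 12.9% and 9.75% lower. At days 10 and 25 they had medians of 0.025 and -0.14 beside -0.063 and -0.040 over all 15192 genes. Ackr1, a chemokine scavenger of red cells, was 0.87 higher at day 10 (limma adjusted p = 0.000213) and changed by -1.23 from day 10 to day 25 (limma adjusted p = 4.40e-06). Of 13 tested erythroid genes 6 were higher at day 10 and 12 lower on day 25 than on day 10, when 16.2% of all genes were higher in the former and 19.6% lower in the latter. Their mean lay at 0.63 to 0.95 on day 10 and -0.49 to -0.18 on day 25, and their part was not tested. Ptgdr2, a prostaglandin D2 receptor, was 0.71 higher at day 10 (limma adjusted p = 0.000554). Ccr6 rose by 0.48 at day 15 (limma adjusted p = 0.000224), and S1pr1, an exit receptor of lymphocytes, by 0.50 at day 25 (limma adjusted p = 0.00877).

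Of 43 listed ligands 26 were tested, with 3, 4, 2 and 1 higher and 3, 4, 4 and 2 lower at days 10, 15, 20 and 25. These counts are below or near the shares of all genes, 16.2%, 18.9%, 7.46% and 4.88% higher and 21.2%, 22%, 12.9% and 9.75% lower. Saa1, serum amyloid A and a ligand of Fpr2, rose by 0.84 at day 15 (limma adjusted p = 9.97e-06). Csf1, the macrophage growth factor, rose by 1.12 at day 15 (limma adjusted p = 3.48e-05), while Ccl6 fell by 0.86 at day 15, where 1 array lacked a value (limma adjusted p = 0.00222). Ccl17 rose by 0.45 at day 10 (limma adjusted p = 0.00468).

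Of 53 tested genes of signalling behind the receptors, 19, 21, 19 and 3 were lower and 5, 5, 3 and 1 higher at days 10, 15, 20 and 25, when 21.2%, 22%, 12.9% and 9.75% of all genes were lower and 16.2%, 18.9%, 7.46% and 4.88% higher. Gnai3, an inhibitory G protein subunit, changed by -0.59 at day 15 (limma adjusted p = 1.92e-05). Stat3, which acts below Csf3r, changed by -0.71 at day 10 (limma adjusted p = 2.40e-05), though another Stat3 probe gave -0.11. Grk3 and Rgs3, which damp G protein signals, rose at day 15 by 0.60 and 0.87 (limma adjusted p = 1.92e-05 and 8.43e-05), while other probes of these genes gave -0.48 and -0.19. Of 25 genes of adhesion and exit from marrow 9, 10, 10 and 5 were lower and 3, 2, 0 and 0 higher at days 10, 15, 20 and 25. Mmp8, a neutrophil collagenase, changed by -1.50 at day 10 and Adam8 by -1.07 (limma adjusted p = 1.49e-05 and 6.80e-05). Padi4, which modifies neutrophil chromatin and lacked a value on 1 array, changed by -0.59 at day 25 (limma adjusted p = 0.000921).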

How the data were processed

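RNA of whole blood was measured on 20 two-colour arrays. Per the file headers the deposited scanner files hold the intensity of each spot and its local background in both channels, written by Agilent Feature Extraction 9.1.3.1 (also named in the submitters' processing notes). The software's log10 ratio (Cy5 over Cy3, per the file headers) equalled all 900360 values of the authors' deposited matrix, and served only as an alternative. Further steps by the authors are not given in the sources used here.

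Intensities were corrected with normexp (offset 50) and normalised by loess in limma 3.58.1 (R 4.3.3, version 1.17.8 of data.table, statmod 1.5.0), with control spots at weight 0. On most arrays a few spots (0 to 53) had a net signal over 100 below the array median. They were taken to distort the normexp fit and were left out of it and of all values. This choice was made after the data were seen, and it changes many calls: a fit on all spots is given as an alternative. Net Cy5 intensity had a median of 50.1 to 69.6 on day 0 and 13.0 to 29.7 later, and 38.1% to 52.2% of probes were well above background, which limits dim probes. Every day 0 array thus had a higher median than every later array, and the offset of 50 lay above all later medians. The part of this in the changes from day 0 was not tested.

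Probes entered the fit when 4 or more arrays had Cy5 well above background and each day had 3 or more measured arrays. All 20 arrays entered 1 limma fit with 5 day means, tested two-sided with Benjamini-Hochberg adjustment over all 20955 probes (threshold 0.05). The brightest probe stood for a gene in the lists (15192 genes). Names came from RefSeq tables of GRCm38.p6: 23374 of 41174 probes through an accession, 6733 through a symbol, 2919 through an older symbol, while 8148 have only the name of the array design.

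The same mice were bled on each day, so mouse numbers pair the samples. Deviations from day means correlated at a mean r of 0.063 over 40 pairs of arrays of 1 mouse and -0.021 over 120 pairs of different mice. Mouse as a replicate block was an alternative, as were other normalisations, filters and leaving out arrays or mice. The receptors and lists were chosen with earlier results of these data known. Every receptor probe was named, as were at most 4 genes per related list, by smallest F test p among those called against day 0, and the 3 genes most like each receptor that passed the F test. One gene that this rule names is not reported here.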

Additional observations from a re-analysis of the deposited data

Results flagged for a closer look

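Within the 4 arrays of a day, 2 of 60 sets of receptor values held a mouse far from the other three by Dixon's test, which chance flags in about 1 of 20 sets. Cx3cr1 probe 1 on day 0 read 0.75 in mouse 305, against 0.064 in the nearest other mouse. Cxcr4 probe 2 on day 0 read -0.016 in mouse 315, against 0.25 in the nearest other mouse.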

How the results depend on the processing

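The lower calls of Cxcr2 probe 1, Fpr1 and Csf3r at days 10 and 20 held under each alternative run, leave-outs included. Main counts were 7, 7, 7 and 7 probes against day 0 and 2 between days 10 and 25, when 7712, 8172, 4187, 3295 and 7530 of all probes passed. Normexp fitted on all spots gave 3, 3, 5 and 0, and 1 between days 10 and 25, when 2328, 1168, 658, 38 and 6581 of all probes passed. The scanner software's log ratio gave 4 at day 15, 1 at day 25 and 0 between days 10 and 25 (limma, 4 at an unadjusted p under 0.05). It called 7363, 810 and 6895 of all probes in these comparisons. Scaling between arrays, the Cy5 channel alone and a fit on only the arrays compared gave 3 each at day 25. They called 2752, 2170 and 692 of all probes at that day. Requiring all 20 arrays well above background, which leaves fewer probes, gave 4, 4, 4 and 3, and 5 probes highest on day 0 in place of 9. Of the 12685 probes left, 5065, 5758, 2302 and 1396 passed. With no filter on dim probes the counts were 8, 8, 8 and 8, a receptor probe under the filter being added on each day. That run called 10692, 10441, 6683 and 6023 of 41138 probes. With 1 array or mouse left out the count was 6 to 8 at day 10, 6 to 8 at day 15, 4 to 8 at day 20, 2 to 7 at day 25 and 1 to 3 between days 10 and 25. With mouse as a fixed replicate block the counts were 7, 7, 7, 8 and 2, the Cxcr3 call at day 25 being added. The block changed no other call against day 0 or between days 10 and 25, and other pairs of days were not refitted. As a random replicate block (correlation 0.044) the counts were as in the main fit. With median centring the related lists held 98, 105 and 95 called genes at days 10, 15 and 20 and 76 between days 10 and 25, in place of 52, 57, 46 and 45, with 22 of 98 higher in place of 17 of 52 and 60 of 76 in place of 26 of 45. Median centring moved the median of all probes by -0.50, -0.53, -0.53 and -0.22, and the scanner software's ratio by up to -0.20. A shift of over 0.1 was taken off that day's values, so the scanner software's shift of -0.054 at day 25 stayed in. The main fit was not re-centred. Except where noted the cause was not tested.

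Signs changed in 68 refits, 1 of them for a called value (Cxcr4 probe 2 at day 10). Median centring gave 0.0018 for Cx3cr1 probe 1 at day 10, 0.35 for Ccr2 probe 2 at day 10, 0.10 for Fpr2 probe 2 at day 10, -0.56 for Ccr2 probe 1 at day 15, 0.13 for Fpr2 probe 2 at day 15, -0.25 for Ccr2 probe 1 at day 20, -0.11 for Cxcr3 at day 20, 0.41 for Ccr2 probe 2 at day 20, 0.090 for Fpr2 probe 2 at day 20, 0.069 for Cx3cr1 probe 1 at day 25 and 0.26 for Ccr2 probe 2 at day 25. Scaling between arrays gave 0.024 for Cx3cr1 probe 1 at day 10, -0.022 for Ccr2 probe 1 at day 15 and 0.043 for Cx3cr1 probe 1 at day 25. No background correction gave 0.052 for Cx3cr1 probe 1 at day 10, -0.048 for Ccr2 probe 2 at day 15, 0.0094 for Ccr2 probe 2 at day 20, 0.016 for Cx3cr1 probe 1 at day 25 and 0.016 for Ccr2 probe 2 at day 25. The scanner software's log ratio gave 0.26 for Cx3cr1 probe 1 at day 10, 0.19 for Cxcr3 at day 15, 0.10 for Cx3cr1 probe 1 at day 15, -0.52 for Ccr2 probe 2 at day 15, 0.062 for Cx3cr1 probe 1 at day 20 and 0.14 for Cx3cr1 probe 1 at day 25. The Cy5 channel alone gave 0.42 for Cx3cr1 probe 1 at day 10, 0.00037 for Cxcr4 probe 2 at day 10, -0.16 for Ccr2 probe 1 at day 15, 0.10 for Cxcr3 at day 15, 0.17 for Cx3cr1 probe 1 at day 15, 0.25 for Cx3cr1 probe 1 at day 20, 0.22 for Cx3cr1 probe 1 at day 25 and 0.12 for Ccr2 probe 2 at day 25. Normexp fitted on all spots (added after the data were seen) gave 0.029 for Cx3cr1 probe 1 at day 10, 0.0071 for Fpr2 probe 2 at day 10, 0.011 for Cxcr3 at day 15, 0.036 for Fpr2 probe 2 at day 20, 0.039 for Cx3cr1 probe 1 at day 25, 0.065 for Ccr2 probe 2 at day 25 and 0.0026 for Fpr2 probe 2 at day 25. With an array or mouse left out the ranges were -0.20 to 0.19 for Cx3cr1 probe 1 at day 10, -0.14 to 0.089 for Cxcr3 at day 15, -0.22 to 0.050 for Cx3cr1 probe 1 at day 15, -0.051 to 0.11 for Ccr2 probe 2 at day 15, -0.20 to 0.057 for Cx3cr1 probe 1 at day 20, -0.15 to 0.12 for Cx3cr1 probe 1 at day 25, -0.045 to 0.090 for Ccr2 probe 1 at day 15, -0.19 to 0.11 for Ccr2 probe 2 at day 25, -0.24 to 0.052 for Ccr2 probe 2 at day 20 and -0.36 to 0.014 for Fpr2 probe 2 at day 25. Depth: dim probes near background (probe 2 of Ccr2 and Fpr2, and of Cxcr4 at day 15) have values limited by their signal.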
